A study of Homo sapiens with 9 samples.

Results

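The 44 genes described here form the mitotic spindle, kinetochore and G2/M set, a list of gene names that covers entry into mitosis, the spindle, the kinetochore, the spindle checkpoint and cytokinesis. All 44 were found by symbol among the 60605 genes of the deposited table, and all 44 passed the filter for testing, a mean of at least 0.1 FPKM (fragments per kilobase of exon, scaled to the counts of the library, a level corrected for gene length and depth). The list was drawn up by name and not by a measured value, although earlier results of these data were known when it was chosen. RNA-seq was done on TE13 cells, an established human line of esophageal squamous cell carcinoma (ESCC), transfected either with control siRNA or with 1 of 2 PARylator siRNAs, named siRNA.1 and siRNA.2. PARylator is the name used for the long noncoding RNA LINC00885, and the siRNAs are separate reagents against it. Each condition had 3 libraries of poly(A)+ RNA, 9 in all, described as biological replicates of 1 cell line, and all cells including the controls had been transfected. Both PARylator siRNAs were compared with the same 3 control libraries.

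Cells enter mitosis when CDK1, bound to an A- or B-type cyclin, is freed from inhibitory phosphorylation by CDC25 phosphatases and amplified by the kinases PLK1 and Aurora A. Kinetochores then bind spindle microtubules, the spindle checkpoint holds back the anaphase-promoting complex (APC/C) until every chromosome is attached, and the APC/C coactivator CDC20 triggers destruction of cyclin B and securin. Transcripts of these genes accumulate together late in the cell cycle: the MuvB complex with B-MYB and FOXM1 binds an element called CHR (cell cycle genes homology region), and the factor NF-Y binds CCAAT boxes nearby. In squamous carcinomas, as in other growing tissue, the cycling cells express this set, and several of its proteins serve as markers of proliferation.

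That shared promoter layout could be read directly from sequence, and 6 promoters are shown because they span the responses described below: PLK1 and CCNB2, which did not pass the test with either siRNA, HMMR and ANLN, which were lower with each, and NDC80 and AURKB, which were higher with siRNA.1. Sequences are RefSeq promoter windows on GRCh38.p14, from 250 bases before the annotated start to 50 after it, printed 5′ to 3′ on the strand of the gene. Capitals mark matches to the CHR letters TTTGAA or TTCGAA and to CCAAT, each on either strand, so that CCAAT on the opposite strand appears as ATTGG, and adjoining or overlapping matches run together. The windows lie at chr16:23678639-23678938, plus strand (PLK1), chr15:59104896-59105195, plus strand (CCNB2), chr5:163460382-163460681, plus strand (HMMR), chr7:36389612-36389911, plus strand (ANLN), chr18:2571307-2571606, plus strand (NDC80) and chr17:8210176-8210475, minus strand (AURKB).
PLK1: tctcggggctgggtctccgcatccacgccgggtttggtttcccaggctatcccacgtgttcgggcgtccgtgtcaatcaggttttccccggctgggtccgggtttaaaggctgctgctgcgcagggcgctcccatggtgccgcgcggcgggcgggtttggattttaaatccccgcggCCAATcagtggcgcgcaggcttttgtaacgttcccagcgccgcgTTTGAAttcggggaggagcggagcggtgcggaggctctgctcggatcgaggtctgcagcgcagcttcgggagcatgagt
CCNB2: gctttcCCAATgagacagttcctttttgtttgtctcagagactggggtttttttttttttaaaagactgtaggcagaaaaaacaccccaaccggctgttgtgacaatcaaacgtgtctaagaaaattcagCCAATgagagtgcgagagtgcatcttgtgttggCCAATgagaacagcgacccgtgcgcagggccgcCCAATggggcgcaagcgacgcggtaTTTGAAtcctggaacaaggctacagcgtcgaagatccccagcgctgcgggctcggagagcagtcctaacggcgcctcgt
HMMR: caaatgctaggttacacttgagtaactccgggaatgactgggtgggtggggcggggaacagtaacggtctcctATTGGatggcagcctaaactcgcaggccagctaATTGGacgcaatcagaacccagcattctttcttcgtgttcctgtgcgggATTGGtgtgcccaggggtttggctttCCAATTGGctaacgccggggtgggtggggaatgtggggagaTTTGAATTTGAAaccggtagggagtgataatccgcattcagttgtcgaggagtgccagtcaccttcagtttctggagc
ANLN: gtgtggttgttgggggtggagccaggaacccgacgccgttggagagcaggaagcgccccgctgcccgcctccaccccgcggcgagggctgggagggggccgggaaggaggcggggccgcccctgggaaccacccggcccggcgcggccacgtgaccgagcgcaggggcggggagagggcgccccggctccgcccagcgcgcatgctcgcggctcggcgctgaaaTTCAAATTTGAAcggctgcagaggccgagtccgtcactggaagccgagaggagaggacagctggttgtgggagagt
NDC80: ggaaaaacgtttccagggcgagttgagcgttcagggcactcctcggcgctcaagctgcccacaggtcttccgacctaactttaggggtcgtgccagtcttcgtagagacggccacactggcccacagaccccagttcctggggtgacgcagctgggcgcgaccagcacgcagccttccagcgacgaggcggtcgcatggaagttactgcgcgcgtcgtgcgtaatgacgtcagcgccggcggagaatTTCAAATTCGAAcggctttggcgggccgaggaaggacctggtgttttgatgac
AURKB: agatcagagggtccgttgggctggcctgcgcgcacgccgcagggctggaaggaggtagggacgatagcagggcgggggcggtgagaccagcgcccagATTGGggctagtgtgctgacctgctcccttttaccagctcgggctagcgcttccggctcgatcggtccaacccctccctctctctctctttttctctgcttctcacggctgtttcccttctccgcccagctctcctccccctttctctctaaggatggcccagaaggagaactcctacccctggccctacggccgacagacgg

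The PLK1 and CCNB2 windows each held a single CHR match starting 29 bases before the start site, with 1 CCAAT match in PLK1 and 4 in CCNB2. HMMR held 2 adjoining CHR matches, 28 and 22 bases before the start, and 5 CCAAT matches. ANLN held a head-to-head pair of CHR matches 26 and 20 bases before the start and no CCAAT. NDC80 held a similar pair across the start site itself and no CCAAT, and AURKB held 1 CCAAT and no CHR match. The PLK1, HMMR and AURKB windows lie wholly inside the gene coordinates given below, so the start used there is not the outermost one. AURKB had 2 windows, of which 1 is printed, and neither held a CHR match. Of the 44 genes, 37 matched a RefSeq promoter by symbol, and AURKA, BUB3, TTK, UBE2C, BIRC5, TPX2 and FOXM1 were not matched. A CHR match in any of a gene's windows was found in 30 of the 37 (81.1%), against 19.5% of 27305 genes in the same promoter set. A CCAAT match was found in 31 of the 37 (83.8%) against 39.7%, and both together in 26 (70.3%) against 7.85%. The CHR match lay from 0 to 60 bases before a start site in 18 of the 30. Positions were read in 1 window per gene, and where a gene had several, the first with a CHR match was taken. These are matches of letters. Other forms of the CHR were not searched, so a gene without a match is not shown to lack the element, and binding was not measured.

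**Figure D1:**
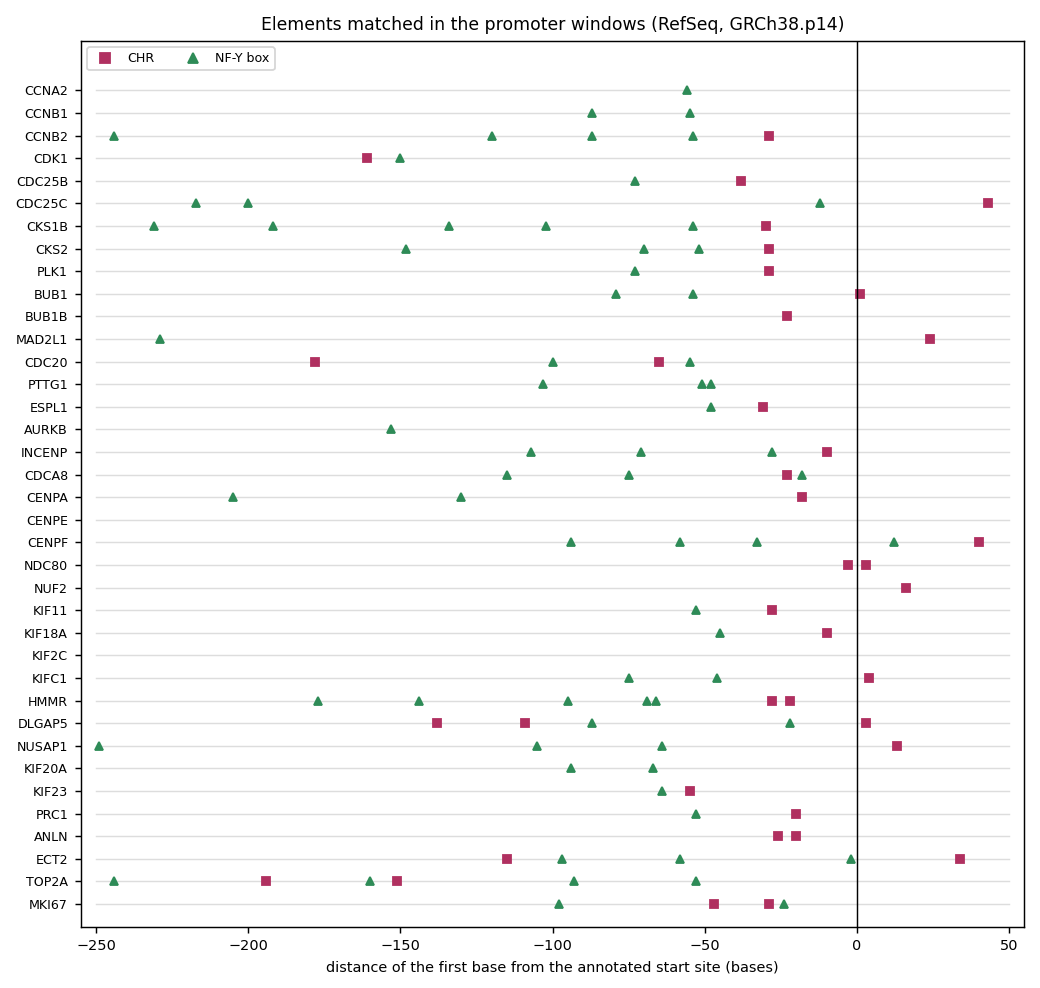
Positions of CHR (squares) and CCAAT (triangles, labelled NF-Y box) matches in 1 promoter window of each of the 37 matched genes, 1 gene per line. The horizontal axis is the distance in bases from the annotated start site. Where a gene had several windows, the first with a CHR match is shown, if any had one. CHR matches were present in 30 genes, and in 18 of them one lay within the 60 bases before the start site.

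The libraries held between 15337917 and 17899074 counts on genes with control siRNA, between 15374616 and 17762752 with siRNA.1, and between 19213164 and 22559998 with siRNA.2. Counts of LINC00885 itself were 6, 7 and 12 in the controls, 4, 5 and 2 after siRNA.1 and 2, 0 and 4 after siRNA.2, too few for a precise measure of the knockdown. Squamous epithelial markers were present, with keratin 17 (KRT17) at a mean of 161 ± 2.34 FPKM (SD, n = 3) in the controls and the squamous factor TP63 at 21.4 ± 0.502. Summed levels of the squamous list were lower in every siRNA library (610.9 to 645 FPKM) than in the control libraries (698 to 711 FPKM). The 8 markers of that list were divided, however, with 4 called lower and 2 called higher with each siRNA. The fibroblast, blood cell and endothelial lists each summed to at most 3.97 FPKM in any library. Blood cell markers summed to between 0.26 and 0.61 FPKM in the controls and between 3.01 and 3.97 FPKM with the siRNAs, most of it LYZ (lysozyme, a mean of 0.317 ± 0.219 FPKM in the controls, 2.79 ± 0.286 after siRNA.1 and 3.08 ± 0.274 after siRNA.2), while CD3E was at 0 in all 3 siRNA.2 libraries. Mitochondrial genes took between 7.46% and 7.66% of counts in the controls, between 4.99% and 5.06% with siRNA.1 and between 5.54% and 5.56% with siRNA.2. The part of these shifts in the results below was not tested.

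The 44 genes were abundant in TE13 cells. With control siRNA their mean levels ran from 1.79 ± 0.478 FPKM (SD, n = 3) for NUSAP1 to 165 ± 2.21 FPKM for ANLN, with a median of 34.1 FPKM, and 32 of the 44 stood above the 90th percentile of all genes tested. Together they took between 0.767% and 0.789% of all counts in the control libraries, between 0.710% and 0.725% with siRNA.1 and between 0.745% and 0.752% with siRNA.2. The 3 conditions did not overlap in this share, and siRNA.2 lay between the control and siRNA.1. In bulk RNA, fewer cells in G2 or mitosis and less RNA of these genes per cell cannot be told apart.

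With siRNA.1, 23 of the 44 genes were lower (52.3%) and 4 were higher (9.09%) by edgeR's quasi-likelihood test at an adjusted p under 0.05, and 17 did not pass. Of all 21395 genes tested, 15.2% were lower and 15.0% were higher in this comparison. The median log2 fold change of the 44 was -0.16, a decrease of 10.7%, beside a median of -0.00056 over all genes tested. The largest change in either direction was under 0.5 on the log2 scale, from -0.48 for CDC25C to 0.27 for NDC80. Among the 4591 genes that averaged 10 FPKM or more, 26.4% were lower and 29.9% higher, and of the 40 members at that level 21 were lower (52.5%) and 4 higher.

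With siRNA.2, 13 of the 44 were lower (29.5%) and 2 were higher (4.55%), and 29 did not pass. Of all genes tested, 15.1% were lower and 15.8% were higher. The median log2 fold change was -0.059, a decrease of 4.01%, and values ran from -0.51 for CDC25C to 0.40 for AURKB. Against genes of at least 10 FPKM, the share of members lower with siRNA.2 was close to the background, 30.0% of 40 members beside 25.1% of 4591 genes. Of those members 2 were higher, beside 33.0% of those genes.

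**Figure D2:**
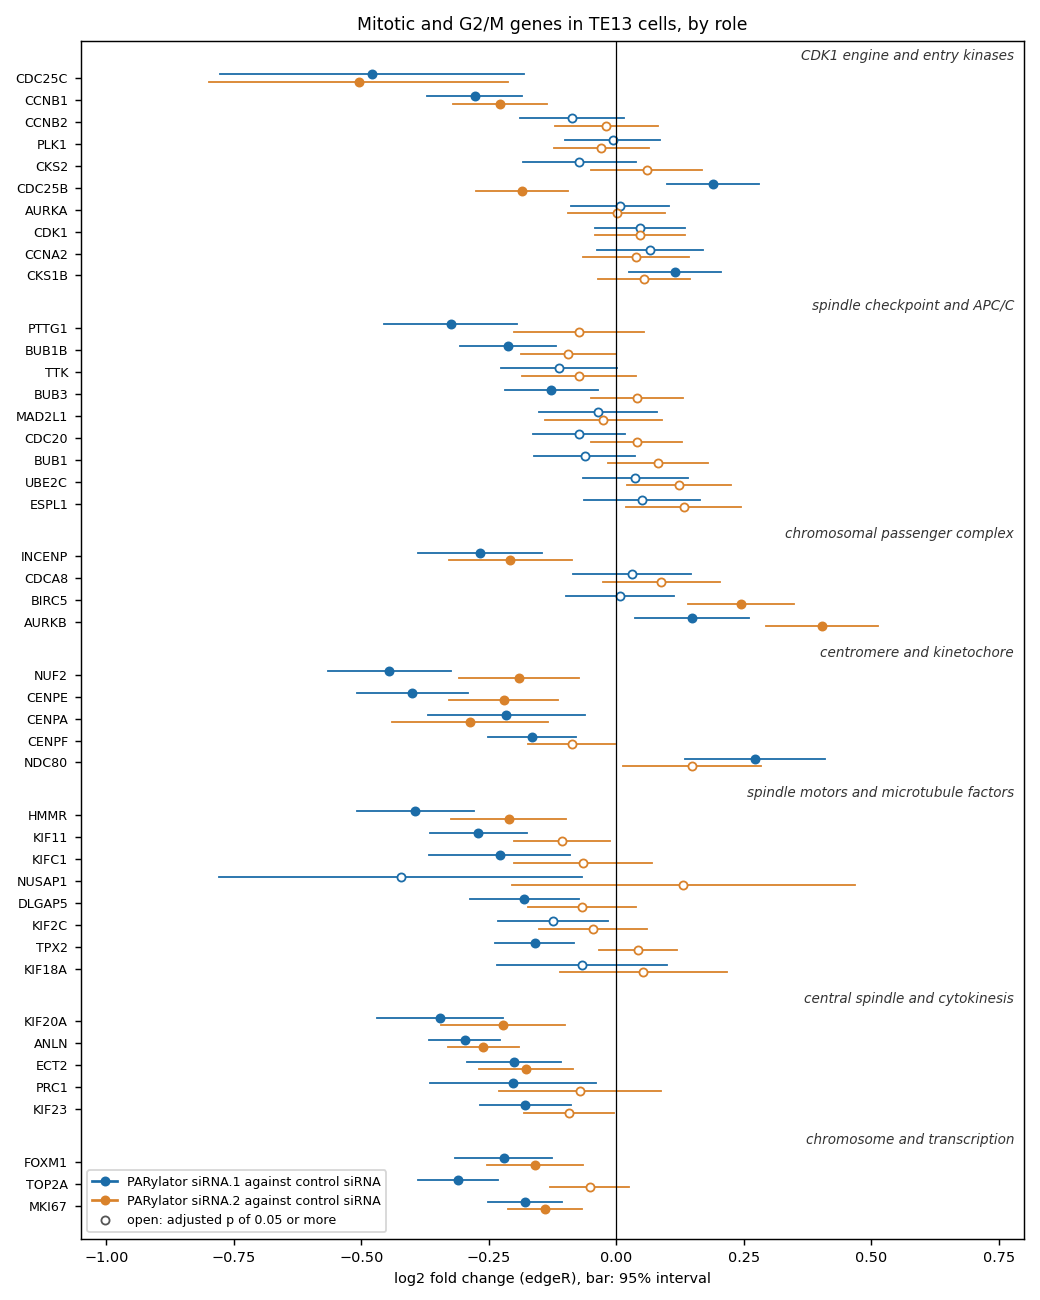
log2 fold change of each of the 44 genes, grouped by role, for siRNA.1 (blue) and siRNA.2 (orange) against control siRNA, with bars for the 95% interval and open points for genes with an adjusted p of 0.05 or more. Most points lie left of 0 with siRNA.1 (33 of 44) and closer to 0 with siRNA.2, AURKB and BIRC5 lie to the right with siRNA.2, and CDC25B lies on opposite sides of 0.

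The 10 genes of the CDK1 engine and the entry kinases had calls in each direction. With siRNA.1, CCNB1 and CDC25C were lower, CDC25B and CKS1B were higher, and the other 6 did not pass. These counts lay near the background, 15.2% lower and 15.0% higher of all genes tested. At 10 FPKM or more it was 26.4% lower and 29.9% higher. With siRNA.2, CCNB1, CDC25C and CDC25B were lower and the other 7 did not pass, beside 15.1% lower of all genes tested and 25.1% at 10 FPKM or more. CCNB1 encodes cyclin B1, the activating partner of CDK1 (chr5:69167135-69178245, plus strand), and was at 86.1, 84.7 and 81.5 FPKM in the controls, 71.2, 71.99 and 68.9 after siRNA.1 and 71.3, 71.8 and 73.8 after siRNA.2. All siRNA libraries were below all control libraries. In log2 fold change, CCNB1 was at -0.28 ± 0.048 (SE, adjusted p = 7.34e-08) with siRNA.1, a fall of 17.5%, and -0.23 ± 0.047 (SE, adjusted p = 1.11e-05) with siRNA.2, a fall of 14.6%.

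CDK1 itself did not pass with either siRNA. CDK1, the mitotic cyclin-dependent kinase (chr10:60778331-60794852, plus strand), was at 55.6, 60.5 and 59.3 FPKM in the controls, 62.97, 60.2 and 61.4 after siRNA.1 and 58.3, 62.1 and 62.01 after siRNA.2, and the conditions overlapped. The log2 fold change of CDK1 was 0.046 ± 0.045 (SE, adjusted p = 0.499) with siRNA.1 and 0.046 ± 0.045 (SE, adjusted p = 0.509) with siRNA.2, and the 95% intervals ran from -2.91% to 9.80% and from -2.92% to 9.71%. PLK1, Polo-like kinase 1 (chr16:23677656-23690367, plus strand), was at 39.5, 38.3 and 35.9 FPKM in the controls, 40.3, 36.2 and 38.6 after siRNA.1 and 36.5, 37.8 and 37.9 after siRNA.2. AURKA, the Aurora A kinase of centrosomes and spindle poles (chr20:56369389-56392337, minus strand), was at 54.5, 57.5 and 52.9 FPKM in the controls, 57.2, 55.3 and 56.3 after siRNA.1 and 54.03, 56.05 and 56.1 after siRNA.2. Both kinases overlapped across conditions and did not pass the test. The intervals for PLK1 ran from -6.78% to 6.18% with siRNA.1 and from -8.14% to 4.55% with siRNA.2. For AURKA they ran from -6.00% to 7.46% and from -6.39% to 6.91%.

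The CDC25 phosphatases, which remove the inhibitory phosphates from CDK1, gave the only pair of opposite calls among the 44. CDC25B (chr20:3786772-3806121, plus strand) was at 54.97, 55.6 and 51.6 FPKM in the controls, 64.3, 62.9 and 61.1 after siRNA.1 and 47.6, 48.97 and 47.1 after siRNA.2. Its siRNA.1 libraries were all above the control libraries and its siRNA.2 libraries all below them. CDC25B had a log2 fold change of 0.19 ± 0.046 (SE, adjusted p = 0.000255) with siRNA.1 and -0.19 ± 0.046 (SE, adjusted p = 0.000371) with siRNA.2. CDC25C (chr5:138285269-138338355, minus strand), the phosphatase that acts at mitotic entry, was the second least abundant member of the set. It was at 2.94, 3.03 and 3.52 FPKM in the controls, 2.08, 2.93 and 1.98 after siRNA.1 and 2.34, 2.67 and 1.77 after siRNA.2, below every control library with either siRNA, although the closest values of control and siRNA.1 nearly touched. Its log2 fold change was -0.48 ± 0.15 (SE, adjusted p = 0.00746) with siRNA.1 and -0.51 ± 0.15 (SE, adjusted p = 0.00351) with siRNA.2. These calls were lost when single libraries were left out, with adjusted p between 0.0549 and 0.0882 for siRNA.1 without control replicate 3, siRNA.1 replicate 1 or siRNA.1 replicate 3, and between 0.0535 and 0.104 for siRNA.2 without control replicate 3 or siRNA.2 replicate 3. limma did not call CDC25C either (adjusted p = 0.116 and 0.0884).

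The small CDK-binding subunit CKS1B was higher with siRNA.1, with a log2 fold change of 0.12 ± 0.046 (SE, adjusted p = 0.0425). That call was lost without control replicate 1, control replicate 2, siRNA.1 replicate 1, siRNA.2 replicate 2 or siRNA.2 replicate 3, with adjusted p of up to 0.247. CCNA2, CCNB2 and CKS2, which encode cyclin A2, cyclin B2 and the second CKS subunit, had log2 fold changes of 0.066, -0.087 and -0.073 with siRNA.1 and 0.038, -0.019 and 0.06 with siRNA.2, and none of the 3 passed.

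Of the 9 genes of the spindle checkpoint and the APC/C, BUB1B, BUB3 and PTTG1 were lower with siRNA.1 (33.3%). That share compares with 15.2% of all genes tested and 26.4% of those averaging 10 FPKM or more. With siRNA.2, edgeR called 0 of the 9, beside 15.1% lower and 15.8% higher of all genes tested. At an unadjusted p under 0.05 it gave 2 higher (UBE2C and ESPL1) and 1 lower (BUB1B), and of the other tools DESeq2 called 0 and limma 1, in the higher direction. PTTG1, which encodes securin, the inhibitor of separase (chr5:160421855-160428739, plus strand), was at 33.1, 32.2 and 34.9 FPKM in the controls, 28.1, 26.3 and 27.2 after siRNA.1 and 31.5, 33.6 and 30.97 after siRNA.2. The siRNA.1 libraries were below all others, and the siRNA.2 libraries overlapped the controls. PTTG1 had a log2 fold change of -0.32 ± 0.067 (SE, adjusted p = 9.82e-06) with siRNA.1 and -0.073 ± 0.065 (SE, adjusted p = 0.45) with siRNA.2, and the 95% interval of the latter ran from -13.0% to 3.81%.

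BUB1B, which encodes the checkpoint protein BUBR1 (chr15:40161023-40221123, plus strand), was at 42.9, 43.8 and 45.7 FPKM in the controls, 37.9, 40.1 and 38.5 after siRNA.1 and 44.2, 41.0 and 39.9 after siRNA.2. It fell with siRNA.1, with no overlap, by a log2 fold change of -0.21 ± 0.048 (SE, adjusted p = 6.44e-05). With siRNA.2, BUB1B overlapped the controls, and its log2 fold change was -0.094 ± 0.047 (SE, adjusted p = 0.125). BUB3, the partner that brings BUB1 and BUBR1 to kinetochores (chr10:123154402-123170467, plus strand), was at 25.7, 26.3 and 26.6 FPKM in the controls, 23.9, 24.4 and 25.1 after siRNA.1 and 27.4, 27.2 and 26.9 after siRNA.2. Its siRNA.1 libraries were the lowest and its siRNA.2 libraries the highest of the 9, with log2 fold changes of -0.13 ± 0.046 (SE, adjusted p = 0.0227) and 0.041 ± 0.046 (SE, adjusted p = 0.576). The siRNA.1 call for BUB3 was lost without control replicate 2, control replicate 3, siRNA.1 replicate 1 or siRNA.1 replicate 2, with adjusted p between 0.0520 and 0.101.

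CDC20, the APC/C coactivator that the checkpoint inhibits (chr1:43358981-43363203, plus strand), was at 108, 122 and 111 FPKM in the controls, 112, 105 and 113 after siRNA.1 and 111, 121 and 121 after siRNA.2. The conditions overlapped, and the 95% intervals ran from -10.7% to 1.13% with siRNA.1 and from -3.34% to 9.30% with siRNA.2. BUB1, TTK, MAD2L1, UBE2C and ESPL1, which encode checkpoint kinases, the checkpoint protein MAD2, an APC/C ubiquitin-conjugating enzyme and separase, did not pass against control. Their log2 fold changes ran from -0.11 (TTK) to 0.051 (ESPL1) with siRNA.1 and from -0.073 (TTK) to 0.13 (ESPL1) with siRNA.2.

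The chromosomal passenger complex, the Aurora B module that corrects faulty attachments and then acts in cytokinesis, held both genes that rose with siRNA.2 and a gene that fell. With siRNA.2, 15.8% of all genes tested were higher and 15.1% lower, and at 10 FPKM or more 33.0% and 25.1%. AURKB, its kinase subunit (chr17:8204733-8210600, minus strand), was at 38.3, 38.8 and 37.97 FPKM in the controls, 46.6, 40.8 and 42.5 after siRNA.1 and 49.6, 52.5 and 51.1 after siRNA.2. The 3 conditions did not overlap, with the controls lowest and siRNA.2 highest. AURKB had a log2 fold change of 0.15 ± 0.057 (SE, adjusted p = 0.0338) with siRNA.1 and 0.40 ± 0.056 (SE, adjusted p = 1.28e-11) with siRNA.2, a rise of 32.2%. The siRNA.1 call was lost when any of the 3 control libraries or siRNA.1 replicate 1 was left out, with adjusted p between 0.0551 and 0.336. Without siRNA.1 replicate 1 the log2 fold change of AURKB was 0.088.

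BIRC5, which encodes survivin, the subunit that binds phosphorylated histone H3 at centromeres, was at 27.6, 29.4 and 29.1 FPKM in the controls, 29.04, 29.8 and 29.3 after siRNA.1 and 32.4, 34.5 and 35.7 after siRNA.2. The siRNA.2 libraries of BIRC5 were above all others, with a log2 fold change of 0.24 ± 0.053 (SE, adjusted p = 3.35e-05), and with siRNA.1 the value was 0.0066 ± 0.054 (SE, adjusted p = 0.958). INCENP, the scaffold that activates Aurora B (chr11:62123998-62153169, plus strand), was at 18.5, 17.1 and 18.2 FPKM in the controls, 15.6, 14.8 and 15.2 after siRNA.1 and 15.5, 14.96 and 16.5 after siRNA.2. Here every siRNA library was below every control library, and the log2 fold changes were -0.27 ± 0.062 (SE, adjusted p = 0.000128) and -0.21 ± 0.061 (SE, adjusted p = 0.00339). CDCA8 (borealin) did not pass, at 0.03 and 0.089.

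**Figure D3:**
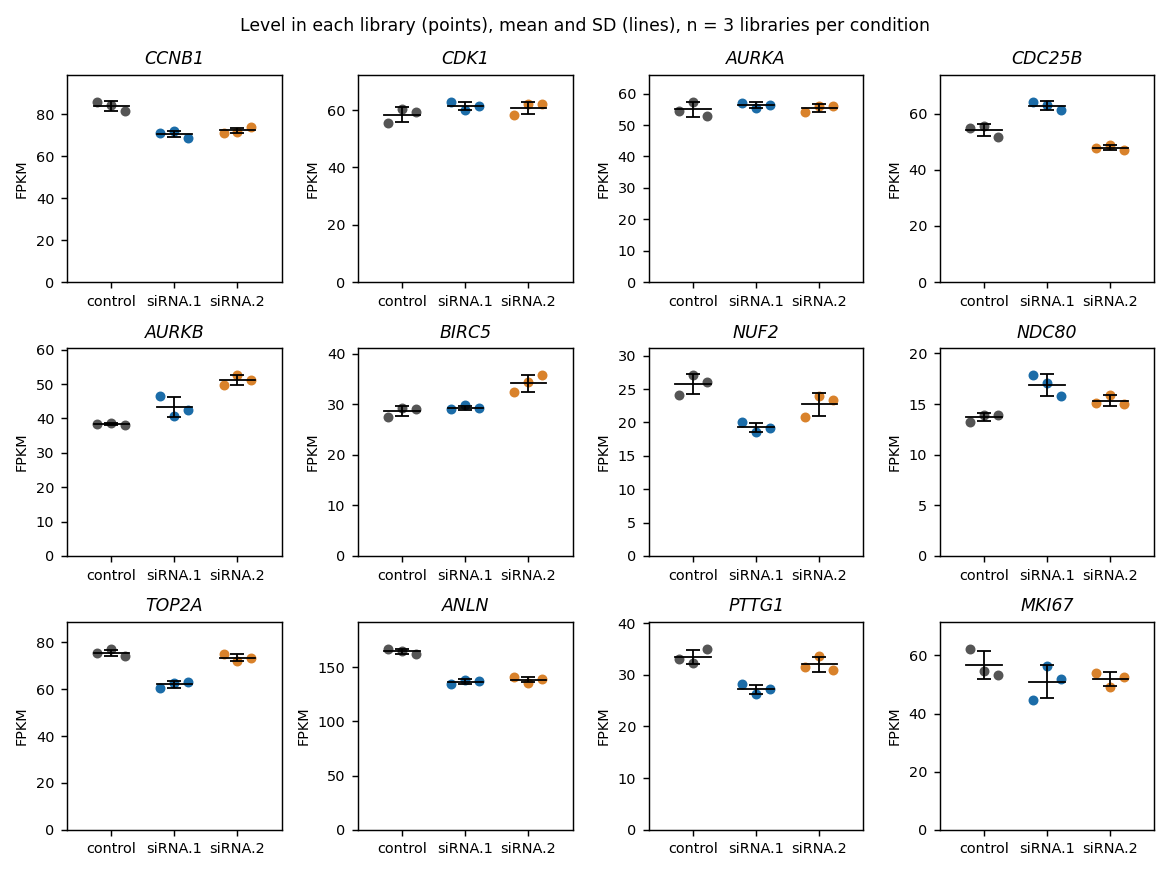
Level in FPKM (vertical axes, starting at 0) of 12 of the genes in each library (points) with the mean and SD of the 3 libraries of each condition (lines). CCNB1 and ANLN were lower in all siRNA libraries, AURKB was higher in all of them, CDC25B rose with siRNA.1 and fell with siRNA.2, TOP2A and PTTG1 were lower in the siRNA.1 libraries, CDK1 and AURKA overlapped, and MKI67 spread widely within conditions.

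All 5 centromere and kinetochore genes passed with siRNA.1, with 4 lower and 1 higher, and 3 were lower with siRNA.2. Shares over all genes tested were 15.2% lower and 15.0% higher with siRNA.1, and 15.1% lower with siRNA.2. NUF2 and NDC80 are direct partners in the NDC80 complex, which couples kinetochores to microtubules, and with siRNA.1 they moved in opposite directions. NUF2 (chr1:163266576-163355764, plus strand) was at 24.1, 27.04 and 26.1 FPKM in the controls, 20.03, 18.6 and 19.2 after siRNA.1 and 20.8, 24.0 and 23.4 after siRNA.2, with every siRNA library below every control library. NUF2 had a log2 fold change of -0.44 ± 0.062 (SE, adjusted p = 1.05e-11) with siRNA.1 and -0.19 ± 0.06 (SE, adjusted p = 0.00659) with siRNA.2. NDC80 was at 13.3, 13.9 and 13.96 FPKM in the controls, 17.8, 17.1 and 15.8 after siRNA.1 and 15.1, 15.9 and 14.98 after siRNA.2, with every siRNA library above every control library. NDC80 had a log2 fold change of 0.27 ± 0.07 (SE, adjusted p = 0.000571) with siRNA.1 and 0.15 ± 0.069 (SE, adjusted p = 0.0925) with siRNA.2, so only the first passed. The siRNA.2 call for NUF2 was lost without control replicate 2 or siRNA.2 replicate 1 (adjusted p = 0.0672 and 0.182) and with limma (adjusted p = 0.0682). Without siRNA.2 replicate 1 the log2 fold change of NUF2 with siRNA.2 was -0.12.

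CENPE, the kinetochore motor kinesin-7 (chr4:103105349-103198445, minus strand), was at 12.5, 12.3 and 11.4 FPKM in the controls, 9.08, 9.88 and 9.03 after siRNA.1 and 11.2, 9.40 and 10.7 after siRNA.2, and all siRNA libraries were below the controls. The log2 fold change of CENPE was -0.40 ± 0.056 (SE, adjusted p = 1.31e-11) with siRNA.1, a fall of 24.2%, and -0.22 ± 0.055 (SE, adjusted p = 0.000315) with siRNA.2, where limma gave an adjusted p of 0.0599. CENPA, the histone H3 variant that marks centromeres, was lower with siRNA.1 (-0.22 ± 0.079 SE, adjusted p = 0.0239) and with siRNA.2 (-0.29 ± 0.078 SE, adjusted p = 0.00123). Without control replicate 2, neither CENPA call held (adjusted p = 0.286 and 0.0607), and the log2 fold change with siRNA.1 was then -0.14. The siRNA.1 call was also lost without siRNA.1 replicate 1 or 3 (adjusted p = 0.0590 and 0.0523) and with limma (adjusted p = 0.0549). CENPF, a large late-cell-cycle kinetochore protein, was lower with siRNA.1 (-0.17 ± 0.044 SE, adjusted p = 0.000922), although its libraries overlapped the controls and limma did not call it (adjusted p = 0.109).

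Of the 8 spindle motors and microtubule factors, HMMR, KIF11, KIFC1, DLGAP5 and TPX2 were lower with siRNA.1 (62.5%). The shares lower with siRNA.1 were 15.2% of all genes tested and 26.4% of those averaging 10 FPKM or more. Only HMMR was lower with siRNA.2 (12.5%), below the 15.1% of all genes tested and the 25.1% of those at 10 FPKM or more. HMMR, a microtubule-binding protein of the spindle (chr5:163460203-163491941, plus strand), was at 24.1, 24.5 and 26.6 FPKM in the controls, 18.4, 20.5 and 19.5 after siRNA.1 and 22.96, 21.2 and 21.4 after siRNA.2, with no siRNA library reaching the controls. HMMR had a log2 fold change of -0.39 ± 0.059 (SE, adjusted p = 3.47e-10) with siRNA.1, a fall of 23.9%, and -0.21 ± 0.058 (SE, adjusted p = 0.0013) with siRNA.2. KIF11, the kinesin-5 motor that pushes spindle poles apart (chr10:92574105-92655395, plus strand), was at 35.6, 35.1 and 35.01 FPKM in the controls, 29.1, 30.8 and 29.5 after siRNA.1 and 31.96, 33.8 and 33.1 after siRNA.2. The 3 conditions of KIF11 were separate, with siRNA.2 in between. The log2 fold change was -0.27 ± 0.048 (SE, adjusted p = 2.66e-07) with siRNA.1 and -0.11 ± 0.048 (SE, adjusted p = 0.078) with siRNA.2, which did not pass.

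TPX2, which activates Aurora A on the spindle, fell with siRNA.1 (-0.16 ± 0.039 SE, adjusted p = 0.000332) and overlapped the controls with siRNA.2 (0.042). KIFC1, a minus-end kinesin, fell by 14.6% and DLGAP5, a spindle assembly factor, fell by 11.7% with siRNA.1. The DLGAP5 call was lost without control replicate 2 or siRNA.1 replicate 3, with adjusted p of 0.0928 and 0.0888, and limma did not make it (adjusted p = 0.0746). KIF18A and KIF2C, kinesins that limit microtubule growth, did not pass with either siRNA.

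NUSAP1, a spindle-associated protein (chr15:41320794-41381050, plus strand), was the least abundant member, at 1.25, 2.15 and 1.98 FPKM in the controls, 1.31, 1.48 and 1.32 after siRNA.1 and 1.74, 1.77 and 2.42 after siRNA.2. Its log2 fold change was -0.42 ± 0.18 (SE, adjusted p = 0.0635) with siRNA.1 and 0.13 ± 0.17 (SE, adjusted p = 0.636) with siRNA.2, and neither passed. In the GENCODE release 44 annotation, 86.8% of the exonic bases of NUSAP1 overlap other genes, OIP5-AS1 among them, and for PRC1 the share is 61.9%, so the counting could have left out or split their reads, and both values are uncertain. No other member had more than 15.9% of its exonic bases overlapped.

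All 5 central spindle and cytokinesis genes, KIF20A, KIF23, PRC1, ANLN and ECT2, were lower with siRNA.1, without overlap with the controls. Of all genes tested 15.2% were lower with siRNA.1, and of those averaging 10 FPKM or more 26.4%. The share of genes without overlap was not computed over all genes, and the PRC1 call was fragile (below). KIF20A, ANLN and ECT2 were also lower with siRNA.2, beside 15.1% of all genes tested. ANLN, the actin-binding scaffold of the contractile ring and the most abundant member in the controls (chr7:36389821-36453791, plus strand), was at 167, 165 and 162 FPKM in the controls, 134, 138 and 138 after siRNA.1 and 141, 136 and 139 after siRNA.2. Its log2 fold change was -0.30 ± 0.035 (SE, adjusted p = 1.55e-15) with siRNA.1, a fall of 18.6%, and -0.26 ± 0.035 (SE, adjusted p = 3.19e-12) with siRNA.2, a fall of 16.5%. The SD of ANLN within conditions was between 2.15 and 2.60 FPKM, beside means of 165, 137 and 138.6 FPKM.

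KIF20A, the kinesin that carries the passenger complex to the midzone (chr5:138178719-138187723, plus strand), was at 21.1, 21.1 and 19.5 FPKM in the controls, 16.3, 15.8 and 17.3 after siRNA.1 and 17.5, 18.8 and 16.9 after siRNA.2, again without overlap. The log2 fold change of KIF20A was -0.35 ± 0.063 (SE, adjusted p = 4.72e-07) with siRNA.1 and -0.22 ± 0.062 (SE, adjusted p = 0.00167) with siRNA.2. ECT2, the exchange factor that switches on RhoA at the division plane, fell by 13.0% with siRNA.1 and by 11.6% with siRNA.2. KIF23, the motor of centralspindlin, fell by 11.6% with siRNA.1 and had a log2 fold change of -0.093 ± 0.045 (SE, adjusted p = 0.109) with siRNA.2. PRC1, which bundles the midzone microtubules (chr15:90966040-90995629, minus strand), was at 6.79, 6.60 and 6.98 FPKM in the controls, 6.26, 6.15 and 5.64 after siRNA.1 and 6.64, 6.30 and 6.61 after siRNA.2. PRC1 was lower with siRNA.1 at the edge of the threshold (-0.20 ± 0.083 SE, adjusted p = 0.0488), and the call was lost when any 1 of 7 libraries was left out, all but siRNA.1 replicate 1 and siRNA.2 replicate 1 (adjusted p between 0.0536 and 0.226). With siRNA.2 the PRC1 value was -0.071 ± 0.081 (SE, adjusted p = 0.583).

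TOP2A, MKI67 and FOXM1 were each lower with siRNA.1, and MKI67 and FOXM1 with siRNA.2. The shares lower over all genes tested were 15.2% with siRNA.1 and 15.1% with siRNA.2. Among genes averaging 10 FPKM or more they were 26.4% and 25.1%. TOP2A, the DNA topoisomerase that untangles sister chromatids (chr17:40388525-40417896, minus strand), was at 75.3, 77.02 and 74.1 FPKM in the controls, 60.4, 62.7 and 62.9 after siRNA.1 and 74.9, 71.9 and 73.3 after siRNA.2. The siRNA.1 libraries of TOP2A were below all others, with a log2 fold change of -0.31 ± 0.04 (SE, adjusted p = 1.93e-13), a fall of 19.4%. With siRNA.2, TOP2A overlapped the controls at -0.052 ± 0.04 (SE, adjusted p = 0.363). FOXM1, the forkhead factor that drives transcription of late cell cycle genes (chr12:2857680-2877174, minus strand), was at 38.2, 38.3 and 34.96 FPKM in the controls, 33.3, 32.7 and 31.5 after siRNA.1 and 32.6, 33.9 and 34.0 after siRNA.2. The siRNA libraries were all below the controls, with log2 fold changes of -0.22 ± 0.049 (SE, adjusted p = 4.6e-05) and -0.16 ± 0.048 (SE, adjusted p = 0.00445).

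MKI67, the proliferation marker Ki-67 that coats mitotic chromosomes (chr10:128096659-128126423, minus strand), was at 62.1, 54.5 and 53.2 FPKM in the controls, 44.8, 56.3 and 51.9 after siRNA.1 and 53.8, 49.2 and 52.5 after siRNA.2. Both comparisons overlapped. edgeR called MKI67 lower with siRNA.1 (-0.18 ± 0.037 SE, adjusted p = 1.1e-05) and with siRNA.2 (-0.14 ± 0.037 SE, adjusted p = 0.000855), whereas DESeq2 (adjusted p = 0.162 and 0.258) and limma (adjusted p = 0.245 and 0.353) did not. The edgeR call was lost for siRNA.1 without siRNA.1 replicate 1, where the log2 fold change was -0.097 (adjusted p = 0.0514), and for siRNA.2 without control replicate 1, where it was -0.068 (adjusted p = 0.219). Without control replicate 1 the siRNA.1 value was -0.11 and still passed. Its means were 56.6 ± 4.77, 51.0 ± 5.80 and 51.8 ± 2.39 FPKM (SD, n = 3).

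The siRNAs were next compared directly, since their effects against shared controls are not independent. With siRNA.2, 12 of the 44 genes were higher than with siRNA.1 (27.3%) and 1 was lower (2.27%), beside 6.10% higher and 6.06% lower of all genes tested. The median log2 fold change of the 44 was 0.083, and among genes of at least 10 FPKM 27.5% of the members were higher beside 15.6% of genes, and 1 of 40 was lower beside 13.3% of genes. Estimates were above 0 for 35 of the 44, beside a median of 0.0043 over all genes tested. All 9 checkpoint and APC/C genes and all 8 spindle motors and microtubule factors were among them, and 3 and 4 of these passed. So were all 4 passenger complex genes, all 5 central spindle and cytokinesis genes, and TOP2A, MKI67 and FOXM1. Of the 10 CDK1 engine and entry kinase genes 3 were above 0, and of the 5 kinetochore genes 3. The share of positive estimates over all genes was not computed.

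The gene that was lower with siRNA.2 was CDC25B, at -0.37 ± 0.046 (SE, adjusted p = 5.22e-14). TOP2A had a log2 fold change of 0.26 ± 0.04 (SE, adjusted p = 6.35e-09), AURKB of 0.25 ± 0.055 (SE, adjusted p = 0.000122), NUF2 of 0.25 ± 0.061 (SE, adjusted p = 0.000692), PTTG1 of 0.25 ± 0.066 (SE, adjusted p = 0.0023) and BIRC5 of 0.24 ± 0.053 (SE, adjusted p = 0.000191). TPX2, BUB3 and KIF11 were higher by 0.20, 0.17 and 0.16 on the log2 scale, and HMMR, CENPE, BUB1 and NUSAP1 by 0.18, 0.18, 0.14 and 0.55. The calls for HMMR, CENPE, BUB1 and NUSAP1 were each lost without siRNA.1 replicate 1 or siRNA.1 replicate 3, and also without siRNA.2 replicate 1 (HMMR and CENPE), replicate 2 (BUB1) or replicate 3 (CENPE, BUB1 and NUSAP1), with highest adjusted p of 0.141, 0.139, 0.155 and 0.324. Those for PTTG1 (without siRNA.2 replicate 2, adjusted p = 0.0540) and KIF11 (without siRNA.2 replicate 2 or 3, highest adjusted p = 0.0946) were lost as well. With limma the calls for NUF2 (adjusted p = 0.0623), BUB1, HMMR, NUSAP1 and CENPE (adjusted p from 0.0701 to 0.267) were not made, and DESeq2 did not make those for CENPE and NUSAP1 (adjusted p = 0.0503 and 0.0791). Of the genes lower with each siRNA, CENPE, NUF2 and HMMR passed a difference between the siRNAs, and 9 did not. Among those 9 were CCNB1 (0.049 ± 0.048 SE, adjusted p = 0.625, 95% interval -3.01% to 10.4%) and ANLN (0.036 ± 0.035 SE, adjusted p = 0.629, 95% interval -2.27% to 7.59%).

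Other genes of the same machinery were read from 7 lists, with S phase genes as a reference for another part of the cycle. Of all genes tested, 15.0% were higher and 15.2% lower with siRNA.1, and 15.8% higher and 15.1% lower with siRNA.2. Among genes of at least 10 FPKM the shares were larger, at 29.9% higher and 26.4% lower with siRNA.1. With siRNA.2 they were 33.0% higher and 25.1% lower. Each list is to be read beside both sets of shares, and the lists were not split by level. Condensin and cohesin subunits, which fold and tie chromosomes, were mostly lower with siRNA.1, with 13 of 17 lower at a median log2 fold change of -0.17 and the other 4 not passing, and with siRNA.2 there were 7 lower and 1 higher at -0.064. NCAPH, a condensin I subunit, was at 13.5 ± 0.623 FPKM (SD, n = 3) in the controls, 9.72 ± 0.864 after siRNA.1 and 10.7 ± 0.483 after siRNA.2, and its log2 fold changes were -0.50 ± 0.062 (SE, adjusted p = 1.19e-14) and -0.35 ± 0.061 (SE, adjusted p = 8.11e-08). Outer kinetochore and constitutive centromere genes gave 11 lower and 3 higher of 25 with siRNA.1 and 5 lower and 5 higher with siRNA.2, the latter close to the shares over all genes. CENPI, a centromere protein, was at -0.57 and -0.41. Further spindle and cytokinesis genes gave 7 lower and 1 higher of 23 with siRNA.1 and 7 lower and 2 higher with siRNA.2, led by the augmin subunit HAUS4 (-0.60 and -0.55).

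The lists of regulators had called genes in each direction, and with siRNA.1 the first 3 of them gave shares close to those over all genes. Among 11 regulators of CDK1 and checkpoint genes, 2 were higher and 2 lower with siRNA.1, and 2 higher and 4 lower with siRNA.2. The higher genes were CDC25A, a phosphatase that activates CDKs, with log2 fold changes of 0.71 ± 0.058 (SE, adjusted p = 1.52e-32) and 0.54 ± 0.058 (SE, adjusted p = 1.42e-19), the growth arrest gene GADD45A with siRNA.1 (0.16) and BORA, an activator of the PLK1 pathway, with siRNA.2 (0.32). CDKN1A, which encodes the CDK inhibitor p21, and SFN were lower with each siRNA, and GADD45B and CHEK2 with siRNA.2. SFN, the 14-3-3 sigma protein that holds CDK1 in the cytoplasm after DNA damage, was at 305 ± 7.70 FPKM in the controls, 180 ± 2.30 after siRNA.1 and 182 ± 2.75 after siRNA.2, with log2 fold changes of -0.79 ± 0.043 (SE, adjusted p = 4.99e-71) and -0.75 ± 0.043 (SE, adjusted p = 5.03e-66). Of 13 MuvB, DREAM and B-MYB genes, 3 were higher and 2 lower with siRNA.1 and 4 higher and 2 lower with siRNA.2, and the MuvB core subunit LIN9 was higher (0.50 and 0.46). Of 16 APC/C genes, 3 were higher and 2 lower, then 4 higher and 2 lower, with ANAPC13 at 0.32 and 0.41. Of 9 checkpoint silencing and RZZ genes, 3 were higher and 3 lower, then 1 higher and 2 lower, and SGO2, which protects centromeric cohesin, was at -0.76 and -0.43.

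S phase genes had medians above 0. Of 29, 10 were higher and 7 lower with siRNA.1 at a median log2 fold change of 0.085. With siRNA.2, 16 were higher and 2 lower at a median of 0.19. These counts are to be read beside the shares given above, over all genes tested and over genes of at least 10 FPKM. TIPIN, a replication fork protection factor, was at 11.2 ± 0.917 FPKM in the controls, 14.7 ± 0.536 after siRNA.1 and 16.8 ± 0.682 after siRNA.2. Its log2 fold changes were 0.36 ± 0.081 (SE, adjusted p = 6.94e-05) and 0.57 ± 0.079 (SE, adjusted p = 1.19e-11).

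**Figure D4:**
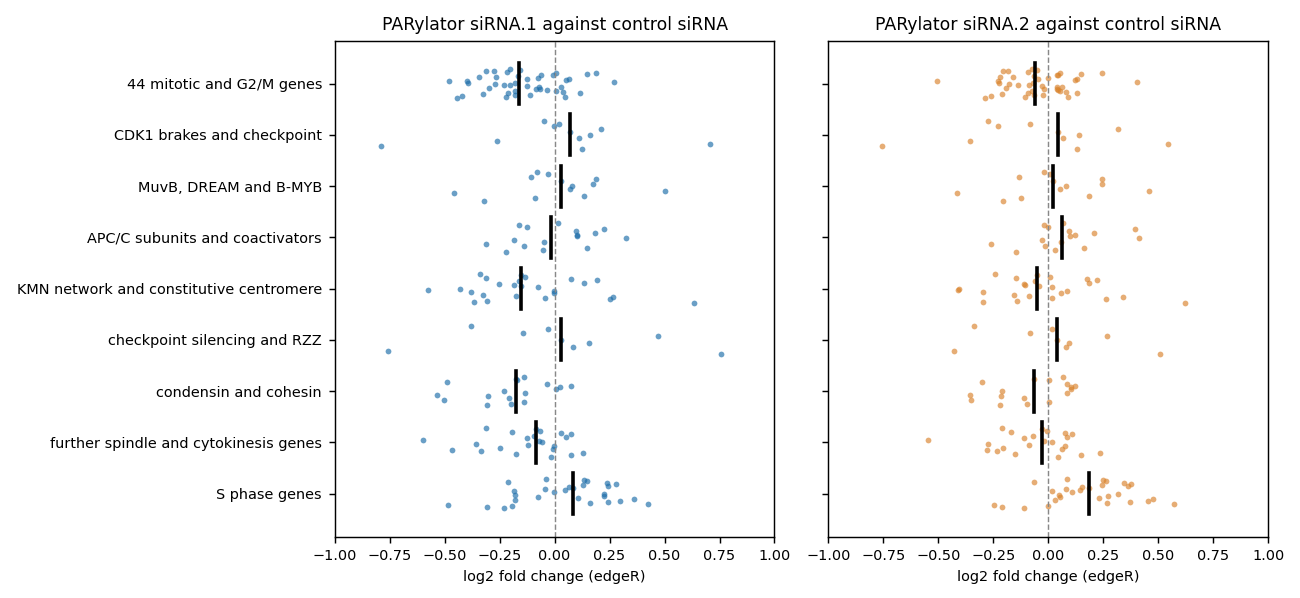
log2 fold change of each gene of the 44 and of 8 other lists (points, spread vertically for visibility) for siRNA.1 (left) and siRNA.2 (right) against control siRNA, with a bar at the median of each list. The bar of the 44 genes lies at -0.16 and -0.059, close to that of condensin and cohesin at -0.17 and -0.064, and the bar of S phase genes lies at 0.085 and 0.19.

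Within the 44, the signed log2 fold change followed neither level nor length closely. Spearman's rho between a gene's log2 fold change and its control level was 0.254 for siRNA.1 and 0.069 for siRNA.2, and with exonic length it was -0.184 and -0.227, over 44 genes that share the same libraries. Genes with and without a match to TTTGAA or TTCGAA had median log2 fold changes of -0.18 (30 genes) and -0.28 (7 genes) with siRNA.1. With siRNA.2 the medians were -0.067 and -0.073. Since only those letters were searched, this is not a comparison of genes that have a CHR with genes that lack one. PLK1, CCNB2, HMMR and ANLN all carried CHR matches between 20 and 29 bases before the start, shown in the printed sequences. Their log2 fold changes with siRNA.1 were -0.0074, -0.087, -0.39 and -0.30. These promoters were chosen to span the responses, so the spread of their values was set by that choice and says nothing about the element.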

How the data were processed

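Poly(A)+ RNA of 9 TE13 libraries, 3 each with control siRNA, PARylator siRNA.1 and PARylator siRNA.2, grouped by their labels, was sequenced on an Illumina NovaSeq instrument. Per the study's methods, FastQC was run on the reads, STAR placed them on GRCh38 and featureCounts gave counts per gene, all by the authors. Tool versions, the annotation release, the strand setting and the time from transfection to harvest were not given in the sources used here. The authors deposited raw counts per gene and, beside them, FPKM values scaled by exonic length and library total. Columns of per-library values left unused numbered 0.

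Counts were tested with edgeR 4.0.16 (R 4.3.3, TMM scaling, glmQLFit and glmQLFTest) with all 3 conditions fitted together. The 21395 genes that averaged 0.1 FPKM or more were tested, and p-values were adjusted over all of these by the Benjamini-Hochberg method, with a threshold of 0.05. Every adjusted p in the text is edgeR's unless another tool is named. The SE is the absolute log2 fold change over the square root of F, and 95% intervals use edgeR's total degrees of freedom. P-values measure the spread between libraries of 1 cell line. DESeq2 1.42.0, the tool the study used, and limma 3.58.1 on log2(FPKM + 0.1) or log2(FPKM + 1) were alternatives, besides other scaling, filters, a fold threshold, fits of only the compared conditions, a replicate block and each library left out in turn. The tests were checked on simulated data. The members, the other lists and the tests were chosen with earlier results of these data known.

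Members with full values were 10 anchor genes and, in each of the 7 roles, the 2 with the largest mean change over both siRNAs and the 1 with the largest difference between siRNAs. In each other list the gene with the largest mean change among those that passed with both siRNAs was named. Other members are named with fewer values. Gene names and coordinates are those of the deposited table, and 43 of the 44 have the same coordinates in GENCODE release 44 (CENPF differs). Promoters are RefSeq's on GRCh38.p14, 35116 windows in all, searched on both strands in Python 3.11.15.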

Additional observations from a re-analysis of the deposited data

Results flagged for a closer look

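In 13 of the 44 genes, the effect of siRNA.2 differed from that of siRNA.1 by edgeR's test of the difference itself, with 12 higher and 1 lower, beside 6.10% higher and 6.06% lower of all genes tested. As log2 fold changes of siRNA.2 over siRNA.1, the cyclin-dependent kinase phosphatase CDC25B was at -0.37, and the checkpoint and APC/C genes BUB1, BUB3 and PTTG1 were at 0.14, 0.17 and 0.25. The passenger complex genes AURKB and BIRC5 were at 0.25 and 0.24, and the kinetochore genes CENPE and NUF2 at 0.18 and 0.25. The spindle genes KIF11, TPX2, HMMR and NUSAP1 were at 0.16, 0.20, 0.18 and 0.55, and TOP2A was at 0.26. The calls for HMMR, CENPE, BUB1, NUSAP1, PTTG1 and KIF11 were lost when single libraries were left out, and limma did not call NUF2, HMMR, CENPE, BUB1 and NUSAP1. Groups of 3 libraries were not tested for single libraries that stand apart.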

How the results depend on the processing

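Counts of members were recomputed under 19 alternatives. With a log2 fold change of 0.5 or more in size required as well, siRNA.1 against control gave 0 higher and 0 lower, siRNA.2 against control gave 0 higher and 1 lower, and siRNA.2 against siRNA.1 gave 1 higher and 0 lower. Replicate numbers did not pair the samples: deviations from the group means correlated between -0.194 and 0.107 for the same number and between -0.0776 and 0.184 for different numbers. With a replicate block, siRNA.1 gave 2 higher members in place of 4 (CKS1B and AURKB were lost) and siRNA.2 against siRNA.1 gave 11 higher. Leaving out 1 library gave 2 to 4 higher members with siRNA.1, with 2 without control replicate 1, control replicate 2 or siRNA.1 replicate 1. The median log2 fold change then ran from -0.17 to -0.12 with siRNA.1, from -0.068 to -0.034 with siRNA.2 and from 0.075 to 0.10 for siRNA.2 against siRNA.1. On limma with pseudocounts of 0.1 and 1, siRNA.2 against siRNA.1 gave 7 higher members each. The medians were -0.14 and -0.13 for siRNA.1 and 0.067 and 0.064 for siRNA.2 against siRNA.1. With each pseudocount, limma kept 21 of the 27 calls for siRNA.1 against control, losing the lower calls of CDC25C, CENPA, CENPF, DLGAP5, PRC1 and MKI67. For siRNA.2 against control it kept 11 of 15, losing the lower calls of CDC25C, CENPE, NUF2 and MKI67, and made 1 new call.

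All sign changes among the named members were in estimates that did not pass, and the cause was not tested. For PLK1 with siRNA.1, the log2 fold change was 0.018 on limma with each pseudocount and 0.000166 with no filter. For AURKA with siRNA.2 it was -0.00869 with DESeq2, -0.00883 with RLE scaling, -0.00755 with a mean of at least 1 FPKM and -0.0051 with only the compared conditions. For CDK1, siRNA.2 against siRNA.1, it was 0.0012 with upper-quartile scaling and 0.0017 with no filter. Leaving out 1 library gave -0.048 to 0.039 for PLK1 and -0.018 to 0.039 for AURKA with siRNA.1, and -0.067 to 0.0021 for PLK1, -0.025 to 0.031 for AURKA and -0.067 to 0.27 for NUSAP1 with siRNA.2. For siRNA.2 against siRNA.1 it gave -0.023 to 0.040 for CDK1, -0.068 to 0.019 for PLK1, -0.025 to 0.022 for AURKA, -0.043 to 0.11 for MKI67 and -0.17 to 0.16 for CDC25C. CDC25C and NUSAP1 had the lowest levels of the 44 members, at 3.52 FPKM or less in every library, and LINC00885 was too low to measure the knockdown.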

Other observations

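After the values were seen, members were counted by chromosome. Chromosome 5 held 5 of the 44, CCNB1, CDC25C, PTTG1, HMMR and KIF20A, and 5 were lower with siRNA.1 and 4 with siRNA.2, at median log2 fold changes of -0.35 and -0.22. Of the 904 chromosome 5 genes tested, 15.2% were lower with siRNA.1 and 13.2% with siRNA.2, at medians of 0.036 and 0.063. This grouping was chosen for its values, so no test was run on it.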
